A study of Mus musculus with 49 samples.

Results

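Hspa5, Hsp90b1, Pdia4, Dnajb9, Xbp1, Sdf2l1, Herpud1, Calr, Manf and Creld2 are genes of the unfolded protein response of the endoplasmic reticulum (ER). The 10 genes were taken by their symbols from the 45252 genes of a count table of mouse neocortex. No cut on their values was used, but earlier results of these data were known when they were chosen. All 10 were among the 18220 genes that passed the filter on low counts and entered the tests. Neocortical RNA of 49 mice of the rNLS8 line, of mixed strain (C57BL/6J x C3H/HeJ), was sequenced, with 1 library per mouse. Bigenic mice were heterozygous for NEFH-tTA and tetO-hTDP-43ΔNLS, so that the neurofilament heavy chain promoter drove the transgene in neurons, a human TDP-43 that lacks the signal for nuclear import, after doxycycline was taken from the chow. Monogenic mice carried only the tetO-hTDP-43ΔNLS allele and served as controls. All mice lost doxycycline at 25.5 weeks of age and were killed at 28.5 weeks. The ctrl-PBS group held 17 monogenic mice, and TDP-PBS held 10 bigenic mice, both of which received PBS in place of a peptide. The TDP-10+12 group held 10 bigenic mice immunized with peptides 10 and 12 of TDP-43 together. A further 12 bigenic mice, TDP-15, received peptide 15. Immunization started at 8 weeks of age with peptides coupled to ovalbumin and mixed with adjuvant, at a total of 40 µg antigen per dose, and the last dose came after the doxycycline was withdrawn.

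When unfolded proteins accumulate in the ER, the sensors IRE1 (Ern1), PERK (Eif2ak3) and ATF6 (Atf6) start separate branches of a transcriptional and translational response. ATF6 and the spliced form of XBP1 bind promoters of ER chaperone genes, whereas PERK slows translation and raises ATF4 and CHOP (Ddit3). The gene counts do not separate spliced from unspliced Xbp1, do not show cleavage of ATF6 and do not show phosphorylation of PERK, so only transcript levels are described.

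Promoters of many ER chaperone genes are known to carry ER stress response elements, and the stretches of 250 bases before the RefSeq start sites (GRCm38.p6) are shown for the genes on which the results turn. Capitals mark exact matches, on either strand, to ERSE (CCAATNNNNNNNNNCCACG) or to ERSE-II (ATTGGNCCACG). RefSeq promoters were matched for 9 of the 10 genes, all but Manf. The Hspa5 promoter lies at chr2:34771840-34772089 on the plus strand, that of Hsp90b1 at chr10:86705445-86705694 on the minus strand and that of Calr at chr8:84846932-84847181 on the minus strand. For Creld2 the stretch is chr15:88819396-88819645 on the plus strand, for Herpud1 chr8:94386179-94386428 on the plus strand and for Dnajb9 chr12:44210069-44210318 on the minus strand. Dnajb9 and Creld2 are shown because they changed in every bigenic group, and the others because of the motif they hold.
Hspa5: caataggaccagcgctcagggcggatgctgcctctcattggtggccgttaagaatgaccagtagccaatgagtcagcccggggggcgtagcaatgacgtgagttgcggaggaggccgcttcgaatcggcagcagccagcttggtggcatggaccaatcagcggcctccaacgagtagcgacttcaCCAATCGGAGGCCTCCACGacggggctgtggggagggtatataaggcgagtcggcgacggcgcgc
Hsp90b1: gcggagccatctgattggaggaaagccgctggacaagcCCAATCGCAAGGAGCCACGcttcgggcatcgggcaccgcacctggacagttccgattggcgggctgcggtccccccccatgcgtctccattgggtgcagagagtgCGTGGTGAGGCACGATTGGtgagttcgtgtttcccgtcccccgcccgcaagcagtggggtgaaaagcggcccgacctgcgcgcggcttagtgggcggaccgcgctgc
Calr: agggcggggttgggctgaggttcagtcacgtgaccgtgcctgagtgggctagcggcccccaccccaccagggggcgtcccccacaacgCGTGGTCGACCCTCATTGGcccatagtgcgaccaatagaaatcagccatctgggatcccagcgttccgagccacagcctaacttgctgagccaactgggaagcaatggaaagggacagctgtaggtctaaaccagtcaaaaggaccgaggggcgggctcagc
Creld2: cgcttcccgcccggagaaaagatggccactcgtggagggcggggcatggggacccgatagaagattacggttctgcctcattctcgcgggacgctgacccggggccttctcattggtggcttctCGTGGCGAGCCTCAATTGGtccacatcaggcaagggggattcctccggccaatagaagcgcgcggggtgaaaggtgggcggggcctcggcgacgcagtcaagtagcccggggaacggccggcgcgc
Herpud1: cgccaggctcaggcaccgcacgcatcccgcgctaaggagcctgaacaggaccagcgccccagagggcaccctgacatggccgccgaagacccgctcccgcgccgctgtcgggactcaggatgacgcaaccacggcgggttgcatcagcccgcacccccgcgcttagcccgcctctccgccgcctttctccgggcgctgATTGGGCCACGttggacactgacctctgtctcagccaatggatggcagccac
Dnajb9: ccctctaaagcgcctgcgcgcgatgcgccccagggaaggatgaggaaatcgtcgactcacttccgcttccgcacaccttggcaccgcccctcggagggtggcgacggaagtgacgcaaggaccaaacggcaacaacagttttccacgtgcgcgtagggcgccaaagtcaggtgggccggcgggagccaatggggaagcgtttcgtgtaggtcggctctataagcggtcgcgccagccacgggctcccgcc

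An exact ERSE was found in 4 of the 9 promoters (Hspa5, Hsp90b1, Calr and Creld2), against 0.113% of 32851 mouse promoters of the same length. Hsp90b1 held 2 of them, from 212 to 194 and from 107 to 89 bases before the start site. In Hspa5 the match lay 65 to 47 bases before the start site. With 1 mismatch allowed, Pdia4 was added, giving 5 of 9 against 1.32% of all promoters. An exact ERSE-II was found only in Herpud1, 52 to 42 bases before its start site, against 0.0304% of all promoters. With 1 mismatch it was found in 4 of 9 (Creld2, Herpud1, Hspa5 and Sdf2l1) against 1.03%, and the Creld2 match shares bases with that gene's ERSE. The UPRE (TGACGTGG) matched in 0 of 9 promoters and in 0.563% of all. Pdia4, Xbp1, Dnajb9 and Sdf2l1 held none of the exact motifs. Each match describes letters and does not show that a factor was bound. Such elements were already known from promoters of ER chaperone genes, so the shares describe these sequences and are no independent support. No test was made of the shares.

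Libraries held between 17775738 and 21033608 counts. Marker genes of cortical cell types were detected in all groups, and group medians of their sums differed between genotypes for some cell types. No test was made of the sums. The 6 excitatory neuron markers summed to a median of 6973 CPM (counts per 1000000 counts of the scaled library) in ctrl-PBS (5482 to 8287), 5687 in TDP-PBS, 5288 in TDP-10+12 and 5254 in TDP-15. Of 6 inhibitory neuron markers, 4 were called lower in TDP-PBS (66.7%, against 21.6% of all genes). The sum of the 6 had a median of 970.2 CPM in ctrl-PBS and 764.4 in TDP-PBS. The 6 microglia markers summed to 179.2 CPM (167.2 to 193.7) in ctrl-PBS and to 221.3, 213.9 and 221.9 in the bigenic groups. The 6 oligodendrocyte markers had medians of 4562 CPM in ctrl-PBS, 4289 in TDP-PBS, 3960 in TDP-10+12 and 4710 in TDP-15. Of these, 0 were called in each bigenic group. Among 6 astrocyte markers in TDP-PBS, Gfap rose (log2 fold change 1.64) while Slc1a2 (-0.35) and Gja1 (-0.29) fell. Of 4 endothelial markers 1 was lower there. B and plasma cell markers, whose cells express several ER chaperones strongly, summed to group medians between 2.86 and 3.17 CPM for 7 genes, with a highest mouse of 8.9 CPM in TDP-10+12 and 3.62 in ctrl-PBS. Of the 3 that could be tested, 0 were called in TDP-PBS, Sdc1 was higher in TDP-10+12 (log2 fold change 1.12) and Jchain in TDP-15 (0.77), and both were higher in the average of the bigenic groups. Choroid plexus markers reached between 1277 and 1690 CPM in the highest mouse of each bigenic group and 368.1 in ctrl-PBS, with 0 of 4 called in TDP-PBS, 3 higher in TDP-10+12 and 1 in TDP-15. Pituitary markers reached 126.6 CPM in a control and at most 27.4 in a bigenic mouse, and both markers tested were lower in TDP-PBS and TDP-15. Olfactory bulb markers reached 66.9 CPM in a control and 7.36 in TDP-PBS, where 2 of 3 were lower. Among T cell markers only Cd4 was tested, and it was lower in each bigenic group. These counts stand beside 21.9% of all genes called higher and 21.6% lower in TDP-PBS. The shares were 20.8% and 20% in TDP-10+12, 23.6% and 23.2% in TDP-15, and 27.1% and 27% in the bigenic average. The part of these cell types in the results was not tested.

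The first question was whether the genes differed between bigenic and monogenic mice. In TDP-PBS against ctrl-PBS, Dnajb9 rose, Creld2 fell, and the other 8 genes did not pass the test. The call rule, a p under 0.05 in the quasi-likelihood test of edgeR after Benjamini-Hochberg adjustment over all genes, was met by 43.5% of the 18220 genes, and by 2 of these 10. The median log2 fold change of the 10 was -0.03, against -4e-04 over all genes. In TDP-10+12 against ctrl-PBS 2 of the 10 were called, against 40.8% of all genes, and in TDP-15 4 of the 10, against 46.9%. The medians of the 10 were -0.15 and -0.16 there. The 3 comparisons share the same 17 control mice, so that they are not independent of each other. Cortex was measured as whole tissue, in which fewer cells of a type and less RNA per cell cannot be told apart.

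**Figure D1:**
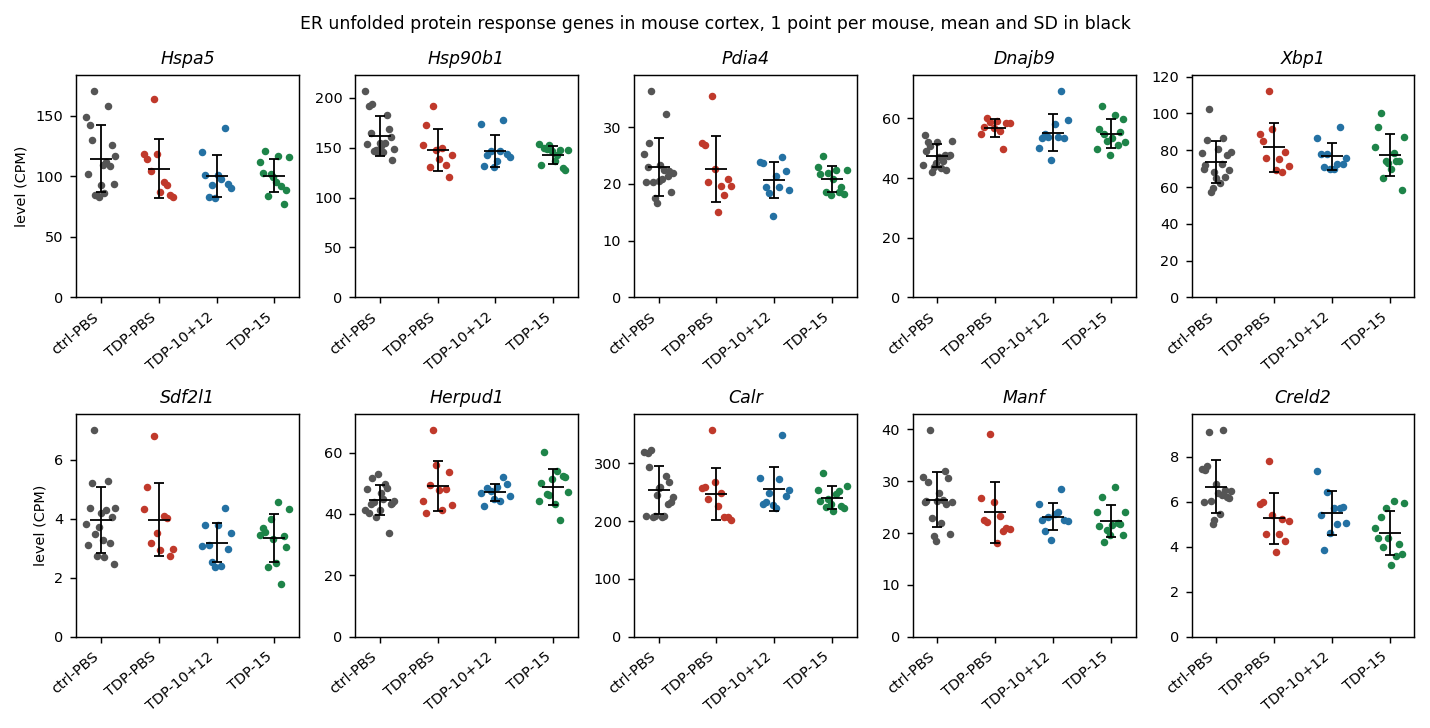
Levels in CPM (y axis, from 0) of the 10 genes in the 4 groups (x axis), 1 point per mouse, with the group mean and SD in black. Dnajb9 sits higher and Creld2 lower in the bigenic groups, and every gene overlaps between the genotypes.

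Calr and Hsp90b1 were the most abundant of the 10 genes per length of annotated exon. In ctrl-PBS the level per kilobase was 87.9 ± 14.4 CPM for Calr, 40.2 ± 4.95 for Hsp90b1 and 27.1 ± 6.51 for Hspa5 (SD, n = 17). Xbp1 followed at 22.7 ± 3.51, Herpud1 at 19.1 ± 2.05 and Dnajb9 at 18.6 ± 1.49, and these levels overlapped between mice. Pdia4 had 9.58 ± 2.11 CPM per kilobase, Manf 7.51 ± 1.5, Creld2 4.88 ± 0.864 and Sdf2l1 3.57 ± 1.02.

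Hspa5 encodes BiP, the main Hsp70 chaperone of the ER lumen and the protein that holds the sensors inactive. Its level in ctrl-PBS ran from 83.3 to 170.6 CPM with a median of 109. TDP-PBS mice ran from 83.0 to 164 CPM around a median of 99.9. In TDP-10+12 the lowest, median and highest values were 82.3, 95.9 and 139.8 CPM, and in TDP-15 they were 77.1, 101 and 121 CPM. Of the 32 bigenic mice, 28 lay inside the ctrl-PBS range and 4 below it. Against ctrl-PBS the fitted log2 fold changes were -0.11 in TDP-PBS (95% interval -0.33 to 0.11, adjusted p = 0.43), -0.19 in TDP-10+12 (-0.41 to 0.03, adjusted p = 0.155) and -0.19 in TDP-15 (-0.40 to 0.02, adjusted p = 0.131). None passed the test, and the upper bounds of the 3 intervals lay between 0.02 and 0.11.

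Hsp90b1 encodes GRP94, the Hsp90 chaperone of the ER. Control levels ran from 138 to 207 CPM, with a median of 155. The range was 121 to 192 CPM for TDP-PBS (median 145), 131 to 178 for TDP-10+12 (median 143) and 128 to 153 for TDP-15 (median 147). No bigenic mouse lay above the highest control and 10 lay below the lowest. Hsp90b1 fell by 0.18 on the log2 scale in TDP-15 (SE 0.06, adjusted p = 0.00907). This fall passed under 12 of 14 alternative ways to fit the data, described below, and was lost under 2 (adjusted p up to 0.226). The log2 fold changes were -0.13 in TDP-PBS (adjusted p = 0.0833) and -0.14 in TDP-10+12 (adjusted p = 0.0646), neither of which passed. An opposite-strand pseudogene, 1810014B01Rik, shares 10.3% of the exon bases of Hsp90b1, and with the strand setting of the counting not given, reads of the 2 cannot be told apart there.

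Calr, Pdia4 and Sdf2l1 passed in no comparison. Calr encodes calreticulin, the calcium-binding lectin chaperone, and lay at 206 to 323 CPM in ctrl-PBS (median 245), with medians of 243, 245 and 237 CPM in TDP-PBS, TDP-10+12 and TDP-15. Its log2 fold changes were -0.04, 0.01 and -0.07, with adjusted p-values of 0.75, 0.92 and 0.447. Pdia4, a protein disulfide isomerase, had medians of 22.0, 20.6, 20.4 and 21.3 CPM in the 4 groups in the same order, and log2 fold changes of -0.02, -0.15 and -0.14. Sdf2l1, a partner of ER Hsp40 proteins, was the least abundant, with 2.47 to 7.0 CPM in ctrl-PBS and 36 to 138 counts per mouse in all groups. The intervals of Sdf2l1 were accordingly wide, from -0.29 to 0.30 on the log2 scale in TDP-PBS, with a log2 fold change of 0.01.

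Dnajb9 encodes ERdj4, an Hsp40 co-chaperone that binds BiP. In ctrl-PBS its levels ran from 41.9 to 54.5 CPM (median 47.3). TDP-PBS mice ran from 49.6 to 60.2 CPM (median 57.8), TDP-10+12 mice from 46.0 to 69.2 CPM (median 53.7) and TDP-15 mice from 47.7 to 64.0 CPM (median 54.1). The genotypes overlapped, but 9 of 10 TDP-PBS mice, 4 of 10 TDP-10+12 mice and 6 of 12 TDP-15 mice lay above the highest control, and 31 of the 32 bigenic mice lay above the control median. It rose by 0.26 on the log2 scale in TDP-PBS (SE 0.05, 1.2-fold, adjusted p = 1.19e-05). The rises were 0.22 in TDP-10+12 (adjusted p = 0.000215) and 0.21 in TDP-15 (adjusted p = 0.000148). Of the 10 genes it also had the smallest spread in ctrl-PBS, with a coefficient of variation of 8.02%, against 24.0% for Hspa5 and 28.6% for Sdf2l1.

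Creld2 and Manf encode ER proteins that can be secreted under ER stress. Creld2 ran from 5.01 to 9.19 CPM in ctrl-PBS, with a median of 6.39. The range was 3.76 to 7.80 CPM for TDP-PBS (median 5.2), 3.86 to 7.38 for TDP-10+12 (median 5.57) and 3.19 to 6.05 for TDP-15 (median 4.38). Below the lowest control lay 4 TDP-PBS, 3 TDP-10+12 and 8 TDP-15 mice, and 29 of 32 bigenic mice lay below the control median. Creld2 fell by 0.34 on the log2 scale in TDP-PBS (SE 0.11, adjusted p = 0.00924), by 0.28 in TDP-10+12 (SE 0.11, adjusted p = 0.0358) and by 0.53 in TDP-15 (SE 0.10, adjusted p = 2.5e-05). The fall in TDP-10+12 passed under 9 of 14 alternatives and was lost without ctrl-PBS mouse 99 (log2 fold change -0.23, adjusted p = 0.0749), without the filter on low counts, with 2 surrogate variables and in either sex alone (adjusted p up to 0.218). Manf ran from 18.5 to 39.8 CPM in ctrl-PBS (median 26.1), and its medians were 22.4, 22.8 and 21.6 CPM in TDP-PBS, TDP-10+12 and TDP-15. It fell by 0.24 on the log2 scale in TDP-15 (SE 0.09, adjusted p = 0.0279), which was lost without ctrl-PBS mouse 99 (adjusted p = 0.075) and in males alone (adjusted p = 0.891). The log2 fold change of Manf was -0.14 in TDP-PBS (adjusted p = 0.256) and -0.19 in TDP-10+12 (adjusted p = 0.114). Exons of Manf overlap those of Dcaf1 and 4930524O07Rik on the opposite strand, by 4.1% and 4.7% of its exon bases.

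Xbp1, the transcription factor downstream of IRE1, and Herpud1, a membrane protein of ER-associated degradation, lay higher in most bigenic mice without passing the test in a single group. Xbp1 ran from 57.1 to 102 CPM in controls (median 71.9), and TDP-PBS mice from 68.3 to 112 CPM (median 77.3). Its medians in TDP-10+12 and TDP-15 were 74.2 CPM each, and 23 of 32 bigenic mice lay above the control median. The log2 fold changes of Xbp1 were 0.15 (adjusted p = 0.123), 0.06 (adjusted p = 0.594) and 0.07 (adjusted p = 0.456). Herpud1 ran from 33.9 to 53.0 CPM in controls (median 44.0), and TDP-PBS mice from 40.4 to 67.2 CPM (median 47.9). Medians were 47.1 CPM in TDP-10+12 and 48.6 CPM in TDP-15, and 26 of 32 bigenic mice lay above the control median. Log2 fold changes of Herpud1 were 0.14 (adjusted p = 0.0771), 0.08 (adjusted p = 0.338) and 0.13 (adjusted p = 0.0723). Without ctrl-PBS mouse 99 both passed in TDP-PBS, with adjusted p-values of 0.0281 for Xbp1 and 0.034 for Herpud1. In TDP-15, Herpud1 passed under 3 of 14 alternatives and not under the other 11.

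**Figure D2:**
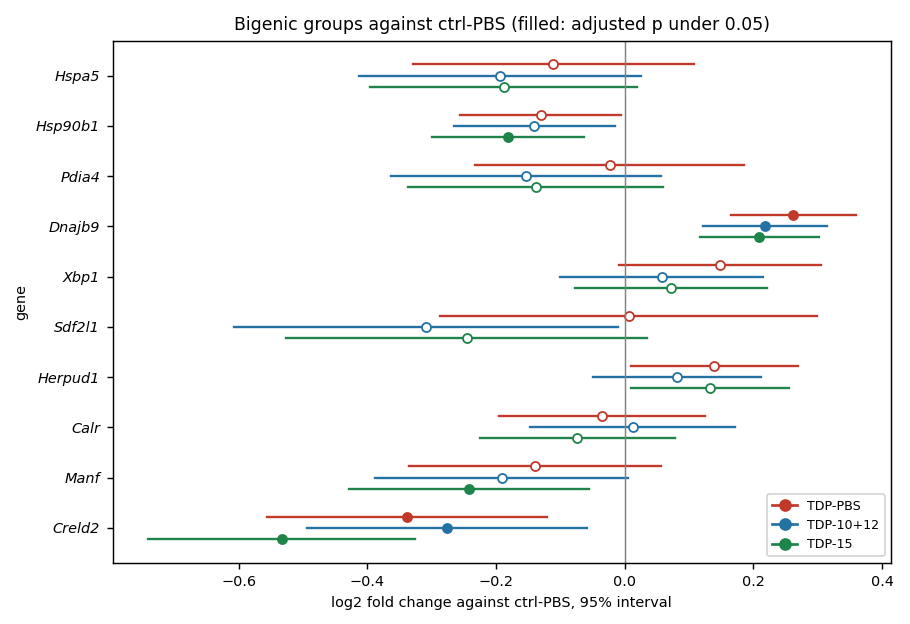
Log2 fold change against ctrl-PBS (x axis) of the 10 genes (y axis) in TDP-PBS, TDP-10+12 and TDP-15, with 95% intervals and filled points where the adjusted p was under 0.05. Dnajb9 is filled above 0 and Creld2 below 0 in each group, and Hsp90b1 and Manf are filled below 0 in TDP-15.

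Averaging the 3 bigenic groups against ctrl-PBS, a comparison added after the data were seen, gave 5 calls among the 10 genes, against 54.2% of all genes. Dnajb9 rose by 0.23 and Herpud1 by 0.12 on the log2 scale (adjusted p = 5.57e-07 and 0.0401). Creld2 fell by 0.38, Manf by 0.19 and Hsp90b1 by 0.15 (adjusted p = 6.26e-05, 0.0241 and 0.00507). The rise of Herpud1 was lost under 5 of 13 alternatives, without the filter on low counts, with a sex term, with 2 surrogate variables and in either sex alone (adjusted p up to 0.372). The fall of Manf was lost under 3 of 13, with 2 surrogate variables, without mouse 99 and in males alone, where the log2 fold change was 0.0099 (adjusted p up to 0.963). That of Hsp90b1 was lost in males alone (adjusted p = 0.267). The levels of the 10 genes summed to a median of 720 CPM in ctrl-PBS (627 to 985), 713 in TDP-PBS (646 to 1040.4), 713 in TDP-10+12 (642 to 943) and 709.7 in TDP-15 (653 to 840.02). Ranges of the 32 bigenic and the 17 ctrl-PBS mice did not overlap for 2.81% of the genes tested, and for 0 of these 10.

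Other genes of the response were taken from lists chosen by function, with earlier results of these data known. They are to be read against all 18220 genes, of which 21.9% were higher and 21.6% lower in TDP-PBS. These shares were 20.8% and 20% in TDP-10+12, and 23.6% and 23.2% in TDP-15. The PERK branch stood highest of the 6 lists, with 9 of 10 genes higher in TDP-PBS (90%, against 21.9% of all genes), 0 lower and a median log2 fold change of 0.67. Atf3, a transcription factor induced by ATF4, had 0.108 to 1.25 CPM in ctrl-PBS and 2.37 to 5.59 CPM in TDP-PBS, and rose by 2.94 on the log2 scale (SE 0.23, adjusted p = 4.23e-15). Trib3, a pseudokinase induced by CHOP, rose by 1.07 (SE 0.26, adjusted p = 0.000734) from levels under 0.824 CPM, or at most 16 counts, in ctrl-PBS. Atf4 ran from 62.3 to 76.3 CPM in ctrl-PBS, 97.8 to 163 in TDP-PBS, 84.1 to 143 in TDP-10+12 and 104 to 132 in TDP-15, so that each bigenic mouse lay above each control. Ddit3 rose from a median of 10.2 CPM in ctrl-PBS to 18.5 in TDP-PBS (log2 fold change 0.81, adjusted p = 4e-10). Ppp1r15b, the constitutive partner of the phosphatase that reverses PERK signalling, had a log2 fold change of -0.02 (adjusted p = 0.745) in TDP-PBS and fell by 0.13 and 0.16 in TDP-10+12 and TDP-15. In both immunized groups the list counted 9 higher and 1 lower of 10, with medians of 0.53 and 0.64. The list is named by known function, PERK activity was not measured, and whether PERK started these rises was not tested.

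Among the 6 sensors and proteases, Eif2ak3 rose by 0.14 in TDP-PBS (adjusted p = 0.0277), while Atf6 and the protease gene Mbtps2, whose product cleaves ATF6 in the Golgi, fell by 0.16 (adjusted p = 0.0185) and 0.23 (adjusted p = 0.00018). Ern1 had a log2 fold change of 0.03, Atf6b, a relative of Atf6, 0.03 and Mbtps1, the other protease gene, 0.06, and none of these passed. Of 19 other ER chaperones and folding enzymes tested, 3 rose and 2 fell, so that 26.3% were called against 43.5% of all genes, and the median log2 fold change was 0.02. The disulfide isomerases Txndc5 and P4hb rose by 0.35 and 0.27 (adjusted p = 1.07e-09 and 6.4e-07). Erp29, with a thioredoxin-like fold, and Pdia3, a disulfide isomerase for glycoproteins, fell by 0.21 and 0.18 (adjusted p = 0.000233 and 0.0132).

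ER-associated degradation genes, which send misfolded proteins to the proteasome, counted 8 higher and 3 lower of 15 in TDP-PBS, with a median of 0.12. These are 53.3% and 20%, against 21.9% and 21.6% of all genes, so that the share lower was near that of all genes. Selenos, a selenoprotein of the ER membrane, rose by 0.42 (adjusted p = 1.5e-09) and Os9, a lectin of the same pathway, by 0.35 (adjusted p = 7.67e-09). Ube2j1, a ubiquitin-conjugating enzyme, fell by 0.195 and Erlec1, another lectin, by 0.15 (adjusted p = 0.000235 and 0.00803). Of 18 translocation and vesicle transport genes 6 rose and 4 fell (33.3% and 22.2%, against 21.9% and 21.6% of all genes), and the median was -0.01. Sec24d, a COPII coat subunit, rose by 0.45 and the retrieval receptor Kdelr1 by 0.23 (adjusted p = 0.00407 and 0.000154). The signal peptidase subunits Spcs1 and Sec11c fell by 0.45 and 0.24 (adjusted p = 1.35e-09 and 0.0033).

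Cytosolic heat shock chaperones, a separate response, counted 1 higher and 4 lower of 10 in TDP-PBS, with a median of -0.14. These are 10% and 40%, against 21.9% and 21.6% of all genes. In total 50% were called, near the 43.5% of all genes. In each immunized group 1 was higher and 5 were lower of 10. The 50% lower there stand against 20% of all genes in TDP-10+12 and 23.2% in TDP-15. Hsph1 (HSP110) ran from 125 to 202 CPM in ctrl-PBS and from 78.2 to 145 CPM in TDP-PBS, and fell by 0.79 (SE 0.09, adjusted p = 3.06e-10). Hsp90aa1, the inducible cytosolic Hsp90, fell by 0.41 (adjusted p = 3.83e-09). The small heat shock protein gene Hspb1 rose by 0.66 (SE 0.28, adjusted p = 0.0456), which was lost without TDP-PBS mouse 91, in DESeq2, without the filter on low counts and with sex as a covariate. In the ER degradation list the counts were 7 higher and 3 lower of 15 in TDP-10+12 (46.7% and 20%), and 7 and 2 in TDP-15 (46.7% and 13.3%). For the other ER chaperones they were 4 and 1 of 19 in TDP-10+12 (21.1% and 5.26%), and 3 and 4 in TDP-15 (15.8% and 21.1%). Of all genes, 20.8% were higher and 20% lower in TDP-10+12, and 23.6% and 23.2% in TDP-15. The other ER chaperones higher in TDP-10+12 and lower in TDP-15 were near these shares, as were the ER degradation genes lower in TDP-10+12.

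**Figure D3:**
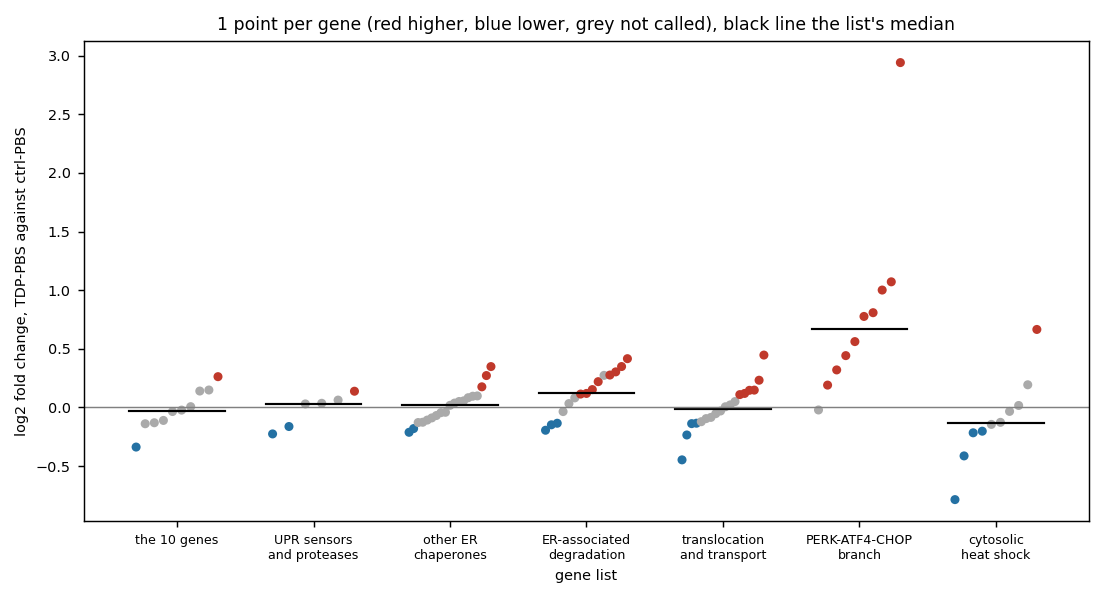
Log2 fold change of TDP-PBS against ctrl-PBS (y axis) for each tested gene of the 7 lists (x axis), red where higher, blue where lower and grey where not called, with the list's median as a black line. The 10 genes centre at -0.03 and the PERK branch at 0.67, with Atf3 at 2.94.

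The next question was whether immunization changed the genes in bigenic mice. No gene was called in TDP-10+12 against TDP-PBS, in TDP-15 against TDP-PBS or in TDP-10+12 against TDP-15, so that 0% of the 18220 genes and 0 of the 10 were called in each by edgeR. DESeq2 called 0 genes in each as well, and limma-voom called 2 genes, neither of them among the 10, in the first of these and 0 in the others. Without adjustment 953, 552 and 1244 genes were under a p of 0.05 in edgeR. For Hspa5 the log2 fold change against TDP-PBS was -0.08 in TDP-10+12 (95% interval -0.33 to 0.16) and -0.08 in TDP-15 (-0.31 to 0.16). For Dnajb9 it was -0.04 (-0.15 to 0.07) and -0.05 (-0.16 to 0.05). The widest differences from TDP-PBS were those of Sdf2l1, with -0.32 in TDP-10+12 (-0.65 to 0.02, adjusted p = 0.953) and -0.25 in TDP-15 (-0.57 to 0.06). Creld2 differed by 0.06 in TDP-10+12 (-0.18 to 0.31) and by -0.19 in TDP-15 (-0.43 to 0.04). Between the immunized groups Creld2 was higher in TDP-10+12 by 0.26 (0.02 to 0.49), with an unadjusted p of 0.0321 and an adjusted p of 0.685. Against TDP-PBS, the upper bounds of the intervals lay at or below 0.17 for all 10 genes in TDP-15, and for all but Calr (0.23) and Creld2 (0.31) in TDP-10+12.

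**Figure D4:**
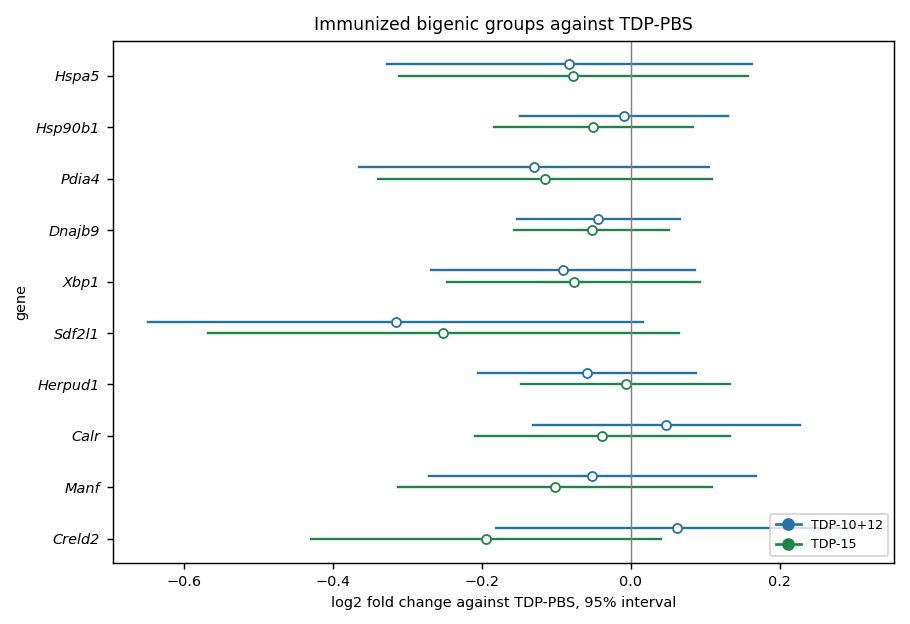
Log2 fold change of TDP-10+12 and TDP-15 against TDP-PBS (x axis) for the 10 genes (y axis), with 95% intervals; open points did not pass the test. Every interval includes 0, and that of Sdf2l1 is the widest.

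Levels of the chaperone genes varied together from mouse to mouse within groups. In the 17 ctrl-PBS mice, Hspa5 spanned a 2.05-fold range, Pdia4 2.19-fold and Manf 2.16-fold, against 1.3-fold for Dnajb9. Across those mice Pearson's r of log2 CPM with Hspa5 was 0.90 for Creld2 (Spearman's rho 0.85), 0.89 for Pdia4 (0.91), 0.89 for Manf (0.90), 0.87 for Hsp90b1 (0.85), 0.86 for Xbp1 (0.87), 0.82 for Calr (0.81) and 0.76 for Sdf2l1 (0.73). All 7 passed a two-sided permutation test with Benjamini-Hochberg adjustment over 18 relations, with adjusted p-values of r between 1.64e-05 and 0.000476, where 1e-05 is the smallest unadjusted p that the permutations can give. The share of all genes that would pass against Hspa5 was not computed, so the passes alone do not set these genes apart. Ranks of r among all genes over the 49 mice are given below. Leaving out the 2 mice farthest from the median of Hspa5 left r between 0.60 (Sdf2l1) and 0.83 for these 7. Dnajb9 (r = 0.36, rho = 0.40, permutation p = 0.162, adjusted 0.172) and Herpud1 (r = 0.11, rho = 0.05, permutation p = 0.68, adjusted 0.68) did not pass.

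The 32 bigenic mice, with the mean of each group subtracted, gave r with Hspa5 of 0.87 for Manf (rho 0.78), 0.86 for Calr (0.78), 0.83 for Pdia4 (0.80), 0.82 for Xbp1 (0.78), 0.76 for Hsp90b1 (0.65), 0.73 for Creld2 (0.75) and 0.68 for Sdf2l1 (0.66). The adjusted permutation p-values of r of these 7 were at most 3e-05, and r stayed between 0.55 and 0.80 without the 2 farthest mice. Here too the share of all genes that would pass was not computed. Herpud1 had r = 0.42 (rho = 0.24, permutation p = 0.0288, adjusted 0.0346), which rested on the 2 farthest mice, since r was 0.14 without them. Dnajb9 had r = 0.29 (rho = 0.08, permutation p = 0.103, adjusted 0.116). Whether r differed between ctrl-PBS and bigenic mice was not tested.

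Pairs among the 8 genes other than Dnajb9 and Herpud1, a split made after the values were seen, had a median r of 0.79 (0.58 to 0.92, 28 pairs) in ctrl-PBS and 0.69 (0.49 to 0.87) in bigenic mice. The 16 pairs that join Dnajb9 or Herpud1 with one of the 8 had medians of 0.32 (-0.09 to 0.51) and 0.35 (0.06 to 0.50). All values of a mouse come from 1 library and share its scaling. Creld2, which fell in bigenic mice, varied with Hspa5 within groups, and Dnajb9, which rose, passed with it in neither set of mice.

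**Figure D5:**
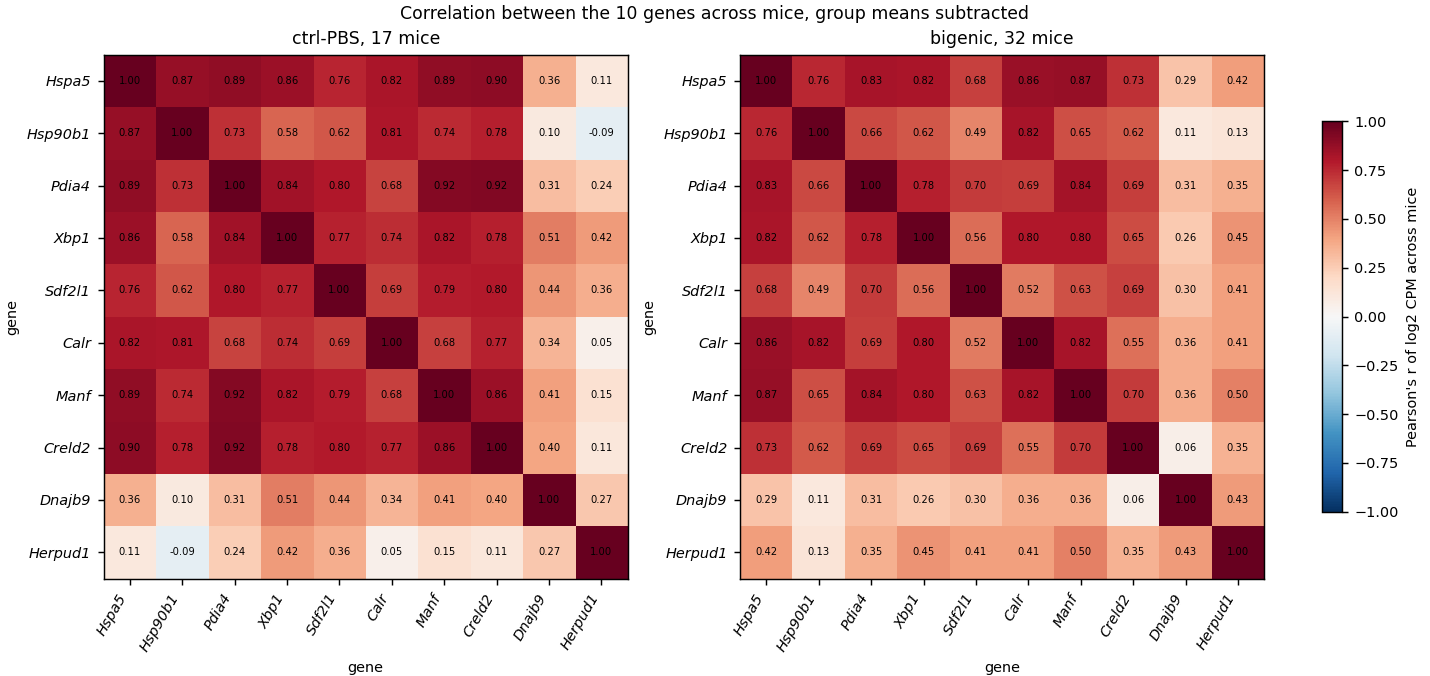
Pearson's r of log2 CPM (colour, and number in each cell) between the 10 genes (both axes) across 17 ctrl-PBS mice (left) and 32 bigenic mice with group means subtracted (right). The 8 genes at the top left vary together, and the rows of Dnajb9 and Herpud1 are paler.

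Across all 49 mice with group means subtracted, the 10 of 18219 other genes most like Hspa5 by r were Manf (0.88), Pdia4 (0.85), P4ha1 (0.85), Calr (0.84), Pdia6 (0.84), Xbp1 (0.83), Pdia3 (0.82), Hsp90b1 (0.80), Spred1 (0.80) and Hsph1 (0.78). Of these, 5 belong to the 10 genes, and P4ha1, Pdia6 and Pdia3 encode ER enzymes of collagen hydroxylation and disulfide exchange. Creld2 ranked 12, Sdf2l1 37, Dnajb9 1963 and Herpud1 2315. By list, the median r with Hspa5 was 0.80 for the other 9 genes, 0.56 for cytosolic heat shock chaperones, 0.44 for other ER chaperones, 0.23 for ER-associated degradation, 0.19 for translocation and vesicle transport, 0.14 for the PERK branch and -0.13 for the sensors and proteases, against 0.0023 over all genes. Mbtps1 had an r of -0.67. These values describe the 49 mice, and no test was made of them.

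Single mice carried many of the highest values. The mouse with the highest Hspa5 of each group was taken, and most of the 10 genes vary with Hspa5. In TDP-PBS, 1 male (mouse 91) had the highest level of 9 of the 10 genes, all but Dnajb9, and of 8 of the 10 cytosolic heat shock chaperones. In TDP-10+12, 1 male (mouse 301) had the highest level of 9 of the 10 genes, all but Creld2, and of 6 of the 10 heat shock chaperones. In TDP-15, 1 male (mouse 126) had the highest level of 6 of the 10 genes and of 5 of the 10 heat shock chaperones. In ctrl-PBS, 1 female (mouse 99) had the highest level of 6 of the 10 genes and of 1 of the 10 heat shock chaperones. Without mouse 91, chosen after the data were seen, 1 gene rose and 3 fell in TDP-PBS against ctrl-PBS, the added falls being Hsp90b1 by 0.17 (adjusted p = 0.0198) and Manf by 0.23 (adjusted p = 0.0323). Leaving out mouse 99 instead gave 3 rises and 1 fall. Each of these is 4 of 10 genes, beside 43.3% of all genes called without mouse 91 and 42.9% without mouse 99.

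Both sexes were present in each group. The genotype effect, bigenic against ctrl-PBS, differed between males and females in 0% of the 18220 genes and 0 of the 10 at an adjusted p under 0.05 in edgeR, with 661 genes under an unadjusted p of 0.05. The effects per sex given here are differences of mean log2 CPM between bigenic and ctrl-PBS mice. The differences between the sexes, with their intervals and p-values, come from the edgeR model. They need not equal the gap between the effects per sex. The effect of Manf was -0.34 on the log2 scale in females and 0.01 in males, with a fitted difference of 0.37 (95% interval 0.08 to 0.66, p = 0.0125, adjusted p = 0.9995). For Xbp1 it was -0.04 in females and 0.25 in males, a difference of 0.30 (0.07 to 0.53, p = 0.0128, adjusted p = 0.9995). The effect of Hspa5 was -0.26 in females and -0.01 in males, a difference of 0.25 (-0.08 to 0.59, p = 0.133, adjusted p = 0.9995). For Dnajb9 it was 0.26 in males and 0.20 in females, a difference of 0.06 (-0.09 to 0.21).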

How the data were processed

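RNA of about 30 mg of neocortex per mouse was sequenced as 100 bp paired-end reads. The values are raw counts per gene and mouse that the authors deposited in 1 table. The submitters' processing notes name HISAT, HISAT2, Bowtie, Bowtie2, RSEM and the mm10 build. The annotation and the strand setting of the counting are not given in the sources used here.

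Genes passed edgeR's filterByExpr (at least 10 counts, at least 15 in total). After TMM scaling, 1 model of the 4 groups with no covariate was fitted to all 49 mice (glmQLFit, then glmQLFTest, in edgeR 4.0.16 under R 4.3.3). Tests were two-sided, with Benjamini-Hochberg adjustment over the 18220 genes tested and a threshold of 0.05. Intervals are 95% intervals of the log2 fold change. CPM are counts scaled by the TMM-adjusted library total. The sex interaction was fitted in the same way, with a sex term and a genotype by sex term added. Correlations used log2 CPM (prior count 2) and 100000 permutations. A floor of 3 counts equals 0.139 to 0.165 CPM, depending on the library, and covers counting error only. No 2 libraries of a group were copies (smallest chi-squared per degree of freedom 7.24). The fits were tested on simulated counts.

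Positions come from the GENCODE annotation of GRCm38, and promoters from RefSeq on GRCm38.p6. The genes and lists were chosen with earlier results of these data known. Named were the 10 genes, all sensors and proteases, the 2 largest called rises and falls of each other list in TDP-PBS, and the 10 genes most correlated with Hspa5. Atf4, Ddit3 and Ppp1r15b were named outside that rule, after their values were seen.

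Alternatives were DESeq2 1.42.0 or its size factors, upper-quartile scaling, no filter or a minimum of 10 counts in each of the 49 libraries, a sex term, 2 surrogate variables from sva 3.50.0, only the groups compared, either sex alone and limma-voom with quality weights (limma 3.58.1). The average of the bigenic groups and the fits without mice 91 and 99 were added after the data were seen. Figures were drawn with matplotlib.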

Additional observations from a re-analysis of the deposited data

Results flagged for a closer look

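Within the groups of 10 mice, single mice stood apart from the rest for 6 of 20 gene and group combinations, by Dixon's ratio of the gap to the range. For normally distributed values, chance alone gives such a gap in about 1 of 20 groups. The CPM were not checked for that shape, the genes are correlated, and the share of all genes flagged was not computed. In TDP-PBS the same mouse had the highest Hspa5 (163.8 CPM, next 118.5), Xbp1 (112.2, next 91.4), Calr (356.9, next 268) and Manf (39.04, next 26.7). Dnajb9 had a lowest TDP-PBS mouse at 49.64 CPM, under the next at 54.7. In TDP-10+12 the highest Calr was 349 CPM, above the next at 273.6. The cause was not tested.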

How the results depend on the processing

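Counts of called genes among the 10 stayed equal or within 1.5 times under 97 of 107 alternatives. These include the comparisons among bigenic groups and the sex interaction, where 0 calls stayed 0 and no ratio applies. All 10 shifts fell in the comparisons with ctrl-PBS. TDP-PBS against ctrl-PBS went from 2 to 4 without mouse 91, without mouse 99 and without both. TDP-10+12 against ctrl-PBS went from 2 to 1 without the filter, with 2 surrogate variables and without mouse 99, and to 0 in males alone (edgeR, with adjusted p-values of 0.0544 for Dnajb9 and 0.172 for Creld2). TDP-15 against ctrl-PBS went from 4 to 1 in males alone. The bigenic average went from 5 to 3 with 2 surrogate variables and in males alone. Fewer mice enter these single-sex fits. The cause of the other shifts was not tested.

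Values that changed sign passed the threshold on neither side, except that of Manf in the bigenic average. Against ctrl-PBS in males alone, TDP-PBS gave log2 fold changes of 0.0564 for Hspa5, 0.1481 for Pdia4, 0.1055 for Calr and 0.1275 for Manf, TDP-15 gave 0.0034 for Sdf2l1 and 0.0074 for Calr, and the average gave 0.0099 for Manf. Creld2 in TDP-10+12 against TDP-PBS was -0.1082 in males. In females alone, Xbp1 was -0.0218, -0.007 and -0.0881 in TDP-PBS, TDP-10+12 and TDP-15, Sdf2l1 was -0.1273 in TDP-PBS, Calr was -0.0347 in TDP-10+12, and Hspa5 was 0.0134 in TDP-10+12 against TDP-PBS. For Sdf2l1 in TDP-PBS the other values were -0.0034 with sex as a covariate, -0.073 by limma-voom, -0.101 without mouse 91, 0.0873 without mouse 99 and -0.0436 without both. Limma-voom gave -0.0126 for Calr in TDP-10+12 against ctrl-PBS and 0.0014 for Hspa5 in TDP-15 against TDP-PBS. Pdia4 in TDP-PBS was 2e-04 with 2 surrogate variables, and lay between -0.1057 and 0.0409 without mouse 91 or mouse 99. Calr lay between -0.0955 and 0.0011 there. Against TDP-PBS, Hspa5 was 0.0058 (TDP-10+12) and 0.0104 (TDP-15) without mouse 91, -0.0825 and -0.0778 without mouse 99, and 0.007 and 0.0128 without both.

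Dnajb9 in TDP-PBS passed under all 14 alternatives (0.25 to 0.28), and Creld2 under 13 of 14 (-0.41 to -0.28), all but males alone (adjusted p = 0.234). Creld2 in TDP-10+12 passed under 9 of 14 (-0.39 to -0.20), and in the bigenic average Herpud1 passed under 8 of 13 and Manf under 10 of 13. The 9 higher genes of the PERK branch became 7 of 8 tested with at least 10 counts in every mouse, 7 in females alone and 8 in males alone. No paired analysis was possible because the labels give neither litters nor replicate numbers shared between groups. Sdf2l1, Creld2 and Trib3 have the fewest counts and the least precise values.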
